A study of Danio rerio with 6 samples.

Results

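The genes described here are 8 genes of myelin and of the cells that make it, taken by gene name from a table of 32520 zebrafish genes. They are *mbpa*, *mbpb*, *mpz*, *mag* and *cldnk*, which code for proteins of the myelin sheath, and *sox10*, *olig2* and *olig1*, which code for transcription factors of the oligodendrocyte lineage. Each name stood on 1 row of the table, and all 8 passed the filter on low counts. RNA-Seq was performed on heads of larvae at 10 dpf (days post fertilization), with 3 pools of homozygous *fbln1* mutants, 3 of WT and 21 heads in each. The authors' extraction methods describe pooled heads, while other passages of their paper name whole larvae. Heads are taken here, and this was not tested. The mutants carry the ulg075 allele, a CRISPR/Cas9 deletion in the coding part of *fbln1*, which codes for the extracellular matrix protein Fibulin 1, and both groups came from crosses of heterozygous parents on an AB background. The labels also name the transgenic line ulg071 Tg, an *sp7* reporter, for the stock of both groups, and whether the sequenced larvae carried it is not given in the sources used here. Genotype was read from the body of each larva, so each pool is a mixture of many individuals and of the cell types of the tissue taken. Summed counts of intestine and exocrine pancreas markers were 95490 or more in every library. Whether all RNA came from head cells was not tested.

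Myelin is the stack of membrane that oligodendrocytes in the brain and spinal cord, and Schwann cells along peripheral nerves, wrap around axons. Structural proteins hold the layers of this membrane together, galactolipids and very long chain sphingolipids make up much of the membrane, and adhesion proteins at the node of Ranvier and beside it anchor the sheath to the axon. The Olig proteins and Sox10 act in oligodendrocyte precursors, and Sox10 also acts in the neural crest, from which Schwann cells and pigment cells arise. In zebrafish larvae the hindbrain and the cranial nerves are among the first places to be myelinated. In pooled heads, fewer cells of a type and less RNA per cell cannot be told apart.

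Values are normalized counts, which are reads per gene divided by 1 size factor per library. The reads on genes numbered 15174207 to 18721515 per library, and 3 reads correspond to 2.60 to 3.20 normalized counts. The lowest value of any of the 8 genes was 37 reads, in 1 library for *olig1*, so none of them was near that floor. The *fbln1* mRNA was 93.2, 53.1 and 39.9 normalized counts in mutant pools 1, 2 and 3, against 77.4, 135.7 and 70.4 in WT pools 1, 2 and 3, a log2 fold change of −0.63 (standard error, SE, 0.33, adjusted p = 0.162, limma). The library labelled mutant pool 1 was thus above 2 of the WT pools for the targeted gene, and pools were grouped by their labels. Without that pool the log2 fold change of *fbln1* was −0.96 (adjusted p = 0.0419, limma), without mutant pool 3 it was −0.36 and without WT pool 2 it was −0.34, neither of these past the test. The first principal component of all tested genes took up 67.3% of the variance and set the 2 genotypes apart.

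Of the 8 genes, only *mbpb* differed between *fbln1* mutant and WT heads at an adjusted p-value under 0.05, and it was 1.29-fold higher in the mutant. None of the 8 was called with limma, nor with edgeR or DESeq2 on the recovered reads, a call being an adjusted p-value under 0.05 with an absolute log2 fold change above 0.5. With limma, 1 of the 8 had an unadjusted p-value under 0.05, against 9261 of the 20691 tested genes. Among all 20691 tested genes, 15.4% were called higher and 2.68% were called lower in the mutant. Without the limit on the fold change, 18.9% of all tested genes were past the test as higher and 15.1% as lower, against 1 and 0 of the 8. The log2 fold change was above 0 for 6 of the 8 genes, and for 9864 of the 20691 tested genes. Its median was 0.15 over the 8 genes, compared with −0.03 over all tested genes. The 95% interval of the log2 fold change lay within 0.5 in either direction for 4 of the 8 genes, and within 1 for all 8. For the other 4, *mbpb*, *mpz*, *cldnk* and *olig1*, the interval reached past 0.5 on the higher side.

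**Figure D1:**
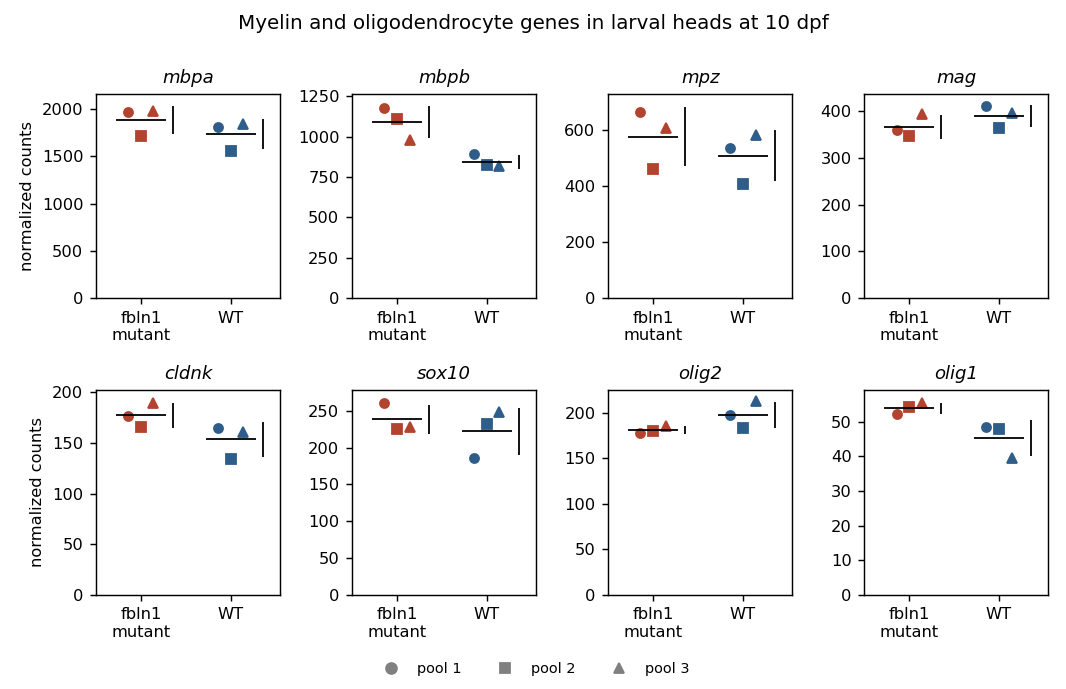
Normalized counts of the 8 genes in each pool (y axis, starting at 0), with the *fbln1* mutant at the left and WT at the right of each panel. Horizontal lines are means, vertical bars are ± 1 SD over 3 pools, and marker shape gives the pool number. The 3 mutant pools stand above the 3 WT pools for *mbpb*, *cldnk* and *olig1*, and the groups overlap for the other 5 genes.

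Myelin basic protein, which joins the inner faces of the myelin membrane, is coded by a pair of genes in zebrafish. For *mbpb* (ENSDARG00000089413), the mutant pools had 1174, 1112 and 982 normalized counts, against 895, 823 and 818 in the WT pools. The lowest mutant pool was thus above the highest WT pool. It averaged 1089 ± 98.2 in mutant pools and 845 ± 43.1 in WT pools (SD, n = 3 each), with a log2 fold change of 0.36 (SE 0.09, adjusted p = 0.00988, limma). Its 95% interval of 0.17 to 0.55 reaches past the limit of 0.5, and its adjusted p was 0.0541 when limma was run without a variance trend. For *mbpa* (ENSDARG00000036186), the mutant pools had 1969, 1714 and 1978 normalized counts, against 1812, 1553 and 1846 in the WT pools. These ranges overlap, since mutant pool 2 lies below WT pools 1 and 3. It averaged 1887 ± 150.3 in mutant pools and 1737 ± 160.1 in WT pools (SD, n = 3 each), with a log2 fold change of 0.12 (SE 0.09, adjusted p = 0.326, limma), or 0.042 without WT pool 2. The *mbpb* count divided by the *mbpa* count, not corrected for gene length, was 0.580 ± 0.077 in mutant pools and 0.489 ± 0.043 in WT pools (SD, n = 3 each). These ratios overlap and gave p = 0.2 in a two-sided exact permutation test over the pools, which cannot go below 0.1 with 3 pools against 3. A difference between the responses of the pair was thus not shown.

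Of the 3 remaining sheath genes, none was past the test. Myelin protein zero, coded by *mpz* (ENSDARG00000038609), is the adhesion protein of peripheral myelin and in fish is also made in the brain. Its counts were 662, 458 and 605 in the mutant pools, against 535, 405 and 581 in the WT pools. The ranges overlap widely, with a log2 fold change of 0.18 (SE 0.16, adjusted p = 0.401, limma), which was 0.027 without WT pool 2 and 0.34 without mutant pool 2. The *cldnk* gene (ENSDARG00000042357) codes for a claudin, a tight junction protein, that marks myelinating glia in zebrafish. It had 176, 166 and 189.8 normalized counts in the mutant pools, against 165, 134 and 161 in the WT pools. All mutant pools were above all WT pools, but mutant pool 2 by less than 1 normalized count. The log2 fold change was 0.21 (SE 0.14, adjusted p = 0.251, limma), or 0.12 without WT pool 2. The myelin-associated glycoprotein, coded by *mag* (ENSDARG00000104023), sits in the innermost layer of the sheath, facing the axon. It had 359, 346 and 394 normalized counts in the mutant pools, against 409.9, 364 and 395 in the WT pools. It was the only sheath gene of the 5 with a lower mean in mutant pools, at −0.09 on the log2 scale (SE 0.10, adjusted p = 0.510, limma).

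Summed over the 5 sheath genes, the mutant pools had 4341, 3795 and 4149 normalized counts, against 3817, 3279 and 3802 in the WT pools. These sums overlap, as mutant pool 2 is below WT pools 1 and 3. They averaged 4095 ± 277 in mutant pools and 3632 ± 306 in WT pools (SD, n = 3 each), a log2 ratio of 0.17, where 1 SD between pools is 0.11 on the same scale. As a share of all reads on genes, the 5 genes took 257, 229 and 256 per 1000000 reads in the mutant pools, against 228, 209.6 and 235 in the WT pools.

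**Figure D2:**
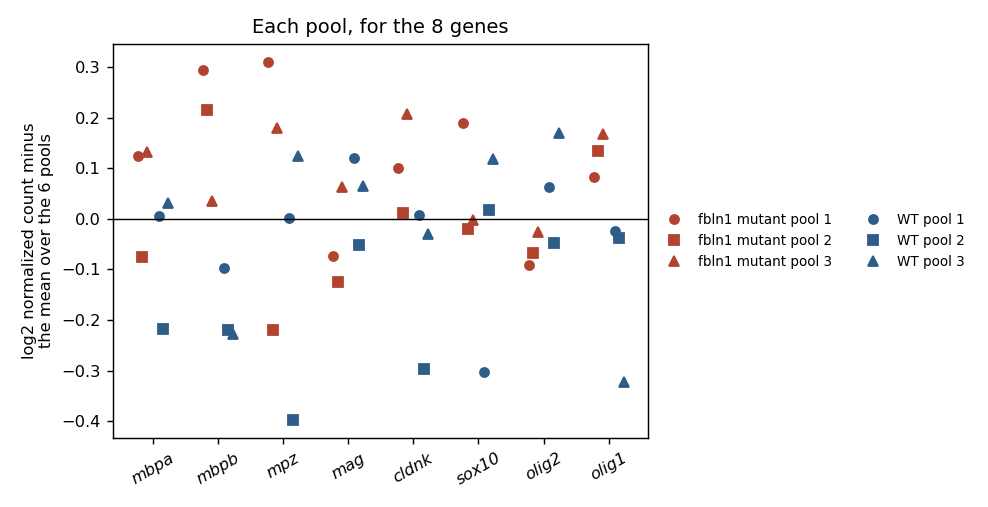
Log2 normalized count of each pool minus the mean over the 6 pools (y axis) for each of the 8 genes (x axis), with *fbln1* mutant pools in red left of WT pools in blue. Squares are the second pool of each group, which is the lowest pool of its group, in both groups, for *mbpa*, *mpz*, *mag* and *cldnk*.

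The spread between pools of 1 group was itself shared by several sheath genes. Pool 2 was the lowest pool in the mutant and also the lowest in WT for 4 of the 5 sheath genes, namely *mbpa*, *mpz*, *mag* and *cldnk*, and for 0 of the 3 transcription factor genes. The share of all tested genes with this order was not counted. Pool 2 of each group also stood apart on the second principal component of all tested genes. The order can thus not be read as particular to the sheath genes. The largest spread was that of *mpz*, with a coefficient of variation (SD as a percentage of the mean) of 18.3% in the mutant and 18.0% in WT. For *mag* it was 6.85% in the mutant and 6.03% in WT. *mbpb*, which has the largest log2 fold change of the 8, did not have its lowest pool at pool 2 in either group.

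The transcription factor genes of the lineage were not past the test. Sox10 acts in the neural crest and in oligodendrocytes, where it drives myelin genes. *sox10* (ENSDARG00000077467) had 261, 226 and 229 normalized counts in the mutant pools, against 186, 232 and 249 in the WT pools. Both groups span nearly the same range, apart from WT pool 1, the lowest of the 6. Its log2 fold change was 0.11 (SE 0.13, adjusted p = 0.553, limma), and −0.011 without WT pool 1.

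Olig2 is needed for oligodendrocyte precursors and for motor neurons, and Olig1 is known from mice as a partner of it in oligodendrocyte maturation. The *olig1* and *olig2* genes are neighbours in the annotation of the GRCz12tu assembly. *olig2* (ENSDARG00000040946) had 177, 180.2 and 185 normalized counts in the mutant pools, against 197, 183 and 212 in the WT pools. The highest mutant pool overlaps the lowest WT pool, with a log2 fold change of −0.12 (SE 0.12, adjusted p = 0.448, limma). *olig1* (ENSDARG00000040948), the gene with the lowest counts of the 8, had 52.3, 54.2 and 55.5 normalized counts in the mutant pools, against 48.5, 48.1 and 39.5 in the WT pools. Its groups did not overlap, with a log2 fold change of 0.25 (SE 0.21, adjusted p = 0.376, limma). The ratio of *olig1* to *olig2* counts was 0.298 ± 0.0030 in mutant pools and 0.232 ± 0.0405 in WT pools (SD, n = 3 each). All 3 mutant ratios were above all 3 WT ratios, and the exact permutation p of 0.1 is the smallest this design allows. *olig1* had few reads, 37 in its lowest library, and counting error at such depth is larger than the mutant SD of 0.0030. That SD thus understates the uncertainty of the mutant ratios. Over the 3 ratios compared, the adjusted value (Benjamini-Hochberg) was 0.3 for this ratio and for *mbpb* over *mbpa*, and 0.7 for *mpz* over *mbpa*.

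In all, the 3 mutant pools stood above the 3 WT pools for 3 of the 8 genes and below them for 0, while 24.5% of all tested genes stood above and 24.3% below. The log2 fold change was smaller than its standard error for 2 genes, *mag* and *sox10*.

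**Figure D3:**
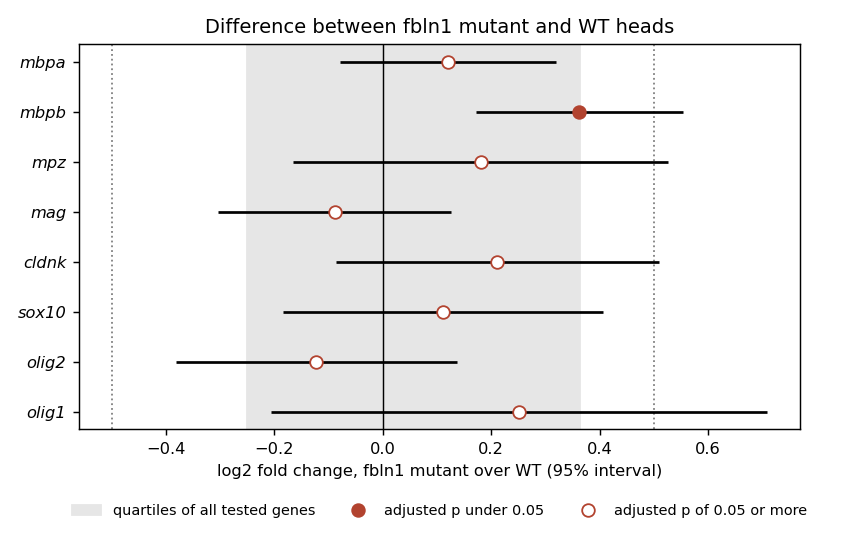
Log2 fold change of *fbln1* mutant over WT for each of the 8 genes (x axis), with its 95% interval from limma. The filled point, *mbpb*, is the 1 gene with an adjusted p-value under 0.05, dotted lines mark the limit of 0.5, and the grey band spans the lower to the upper quartile of all tested genes, from −0.25 to 0.36.

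The other genes of the sheath and of its attachment to the axon were taken as lists and are described by their counts and medians. The count of each list is to be set beside the shares of all tested genes. These were 15.4% called higher and 2.68% called lower, and 18.9% past the test as higher and 15.1% as lower. Among 11 other genes for sheath proteins, 3 were called higher and 0 lower, and the median log2 fold change was 0.16. The called genes were *cldn11b*, *pmp22a* and *cnp*. *cnp*, which codes for an enzyme of the cytoplasm-filled parts of the sheath in mammals, had 981, 1009 and 1019 normalized counts in the mutant pools, against 701, 677 and 676 in the WT pools. For *pmp22a*, a peripheral myelin protein gene that other tissues also express, the counts were 645, 750.1 and 709.6 in the mutant pools and 456, 436 and 439 in the WT pools. Neither gene came close to an overlap of its groups. The log2 fold changes were 0.55 for *cnp* (SE 0.07, adjusted p = 0.000323, limma) and 0.66 for *pmp22a* (SE 0.09, adjusted p = 0.000349, limma). *cldn11b*, a claudin gene, had 171, 226 and 209 normalized counts in the mutant pools, against 128, 102.7 and 136 in the WT pools, at a log2 fold change of 0.72 (adjusted p = 0.00651, limma). Past the test without a call were *mpzl1l*, which fell by 0.32, *tspan2a*, which fell by 0.30, and *pmp22b*, which rose by 0.27 on the log2 scale. The 3 called genes stayed past the test in all 17 alternatives. The smaller changes depended on single libraries and on the method. The number past the test as lower was 1 without mutant pool 1, mutant pool 2, WT pool 1 or WT pool 2. It was 0 without WT pool 3 and 0 with no variance trend. With TMM scaling, edgeR, DESeq2 or limma-voom it was 1, as *mpzl1l* was not past the test. *pmp22b* was not past it without mutant pool 1, mutant pool 2, WT pool 1 or WT pool 2. Nor was *pmp22b* past it with library total scaling, DESeq2 or no variance trend.

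Genes for adhesion at the node of Ranvier and the paranode beside it stood lower in the mutant heads. All 13 rows of this list, which stand for 12 genes, had a log2 fold change below 0, with a median of −0.27. Of them, 8 were past the test, all lower, and 2 were called lower, against 15.1% and 2.68% of all tested genes. With no variance trend only 2 were past it, and the number called lower was 0 with limma-voom and 1 with TMM scaling or edgeR. Contactin and Caspr are the axonal partners that hold the paranodal loops of myelin to the axon. *cntnap1*, which codes for Caspr, had 340.2, 363 and 462 normalized counts in the mutant pools, against 669, 502 and 528 in the WT pools. Its groups did not overlap, with a log2 fold change of −0.55 (SE 0.14, adjusted p = 0.0128, limma). *cntn1b*, a contactin gene, had 1688, 1413 and 1859 normalized counts in the mutant pools, against 2312, 2099 and 2106 in the WT pools, at −0.40 on the log2 scale (adjusted p = 0.0114, limma). Both genes were below their WT values in every pool. *ank3b* codes for an ankyrin of the kind that anchors channels at the node, and 1 of its 2 rows (ENSDARG00000077582) was called lower, at −0.53 (SE 0.10, adjusted p = 0.00287, limma). Its other row stood at −0.17 (adjusted p = 0.412, limma). *cadm3*, an adhesion molecule gene of axons, stood at −0.47 (adjusted p = 0.00415, limma). The number called lower depends on single libraries, since it was 0 without mutant pool 1, 1 without WT pool 1 or WT pool 3 and 3 without mutant pool 3. The number past the test as lower was 5 without mutant pool 1 or WT pool 3 and 4 without WT pool 1, when *cntnap1* and *cntn1b* were not past it. Most of these genes are made by neurons, and the summed counts of 22 neuron markers were lower in each mutant pool as well, at 81071 to 87844 in the mutant and 93629 to 95044 in WT, and the part of that difference in this result was not tested.

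**Figure D4:**
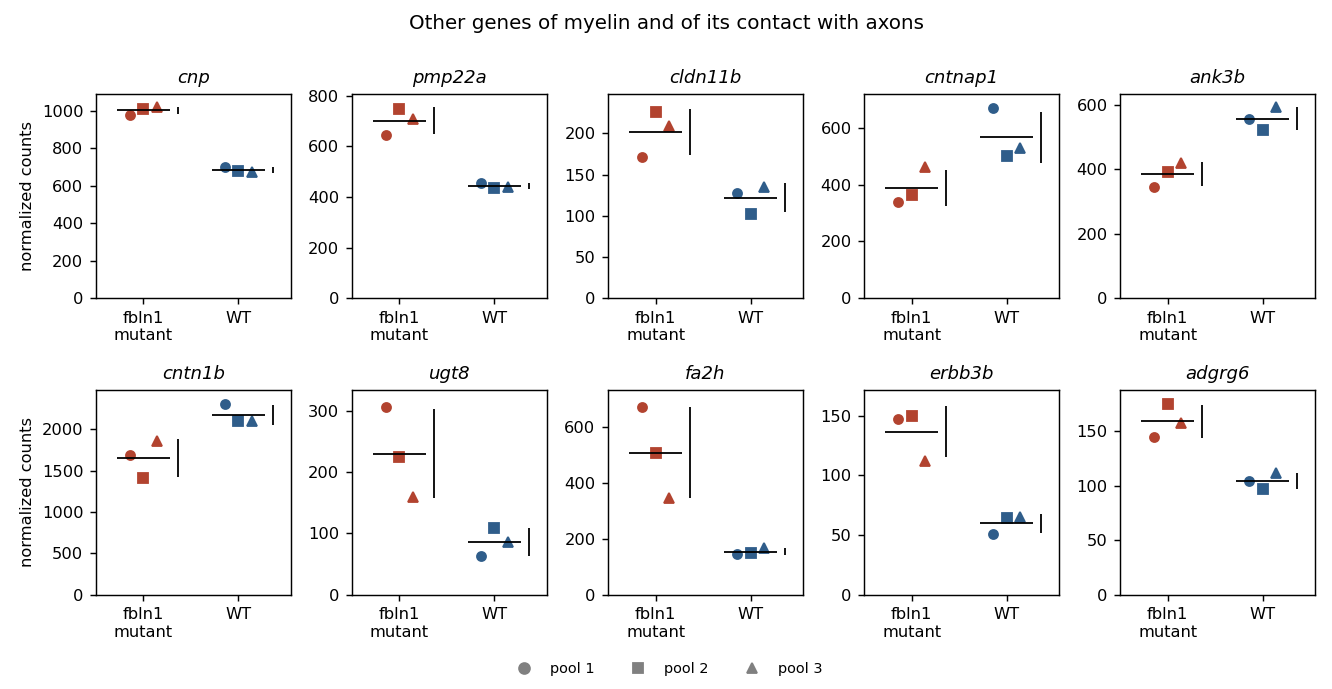
Normalized counts in each pool (y axis, starting at 0) of *cnp*, *pmp22a* and *cldn11b* (sheath proteins), *cntnap1*, *ank3b* (the row called lower) and *cntn1b* (axonal side of the attachment), *ugt8* and *fa2h* (myelin lipid enzymes) and *erbb3b* and *adgrg6* (Schwann cell genes), with the *fbln1* mutant at the left and WT at the right. Lines are means and bars are ± 1 SD over 3 pools. The pools of the 2 groups do not overlap for any of these 10 genes, which were lower in the mutant for *cntnap1*, *ank3b* and *cntn1b* and higher for the other 7. The 10 genes were taken from those past the test, so the lack of overlap follows largely from that choice. Of all tested genes, 24.5% had every mutant pool above every WT pool and 24.3% every mutant pool below.

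The difference between the sheath genes and the attachment genes can be read within each pool. The median log2 count of the 5 sheath genes minus that of the node and paranode list was −0.40, −0.76 and −0.75 in the mutant pools, against −1.04, −1.39 and −0.92 in the WT pools. The 3 mutant pools were above the 3 WT pools, with a difference of 0.48 between the means. The median of the 5 genes was the value of *mpz* in each of the 6 pools, so these values are those of *mpz*. With the mean log2 count of the 5 genes in its place, a measure added after the values were seen, the pools were −0.48, −0.50 and −0.73 in the mutant and −0.96, −1.14 and −0.96 in WT, again without overlap, and the difference was 0.45. Against the neuron markers, the median was −1.60, −2.20 and −1.81 in the mutant pools and −2.05, −2.45 and −1.87 in the WT pools, which overlap. Against 12 markers of astroglia and radial glia it was −1.11, −1.79 and −1.30 in the mutant pools and −1.18, −1.46 and −0.87 in the WT pools, which also overlap. The mean of the 5 genes gave overlapping groups against both lists as well. These within-pool values are not corrected for gene length and were given no test.

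Among 11 genes for enzymes of myelin lipids, 5 were called higher and 0 lower, against 15.4% and 2.68% of all tested genes. The median log2 fold change of the 11 was 0.32. Very long chain and hydroxylated sphingolipids are made with the products of *elovl1a*, *elovl1b*, *degs2* and *fa2h*, and Ugt8 adds the galactose of the galactolipids. *fa2h* had 670.2, 507 and 347 normalized counts in the mutant pools, against 147, 149 and 169 in the WT pools. *ugt8* had 305, 225 and 159 normalized counts in the mutant pools, against 64.0, 109 and 86.4 in the WT pools. For both genes mutant pool 1 was the highest and mutant pool 3 the lowest of the mutant pools, all above WT. Their log2 fold changes were 1.66 for *fa2h* (SE 0.20, adjusted p = 0.000172, limma) and 1.38 for *ugt8* (SE 0.25, adjusted p = 0.0022, limma). The other large increases were those of *elovl1a* at 1.79 (limma adjusted p = 0.00281) and *degs2* at 1.71 (limma adjusted p = 0.000215). *aspa*, which supplies acetate for lipid synthesis in oligodendrocytes, stood at −0.40 on the log2 scale and was not past the test (limma adjusted p = 0.0567). These lipid enzymes are not particular to myelin and are also used in epithelia such as skin and intestine. Intestine and exocrine pancreas markers were higher in the mutant as well, with 13 of 13 called higher. Their summed counts were 185156 to 306555 in the mutant and 95490 to 174886 in WT, none of the 13 being at 0 in every library. The intestinal fatty acid binding protein gene *fabp2* had 13336, 6453 and 5578 normalized counts in mutant pools 1, 2 and 3. The WT pools had 567, 371 and 391. The exocrine pancreas genes of the list had another order, each being highest in mutant pool 2. For *prss1* the counts were 51006, 61895 and 39426 in mutant pools 1, 2 and 3. The part of these tissues in the lipid enzyme values was not tested.

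Other genes of the oligodendrocyte lineage were largely not past the test. Of 13 genes for further transcription factors of the lineage, 0 were called in either direction, and the median log2 fold change was −0.05. *myt1a*, which codes for a zinc finger protein of the nervous system, fell by 0.30 on the log2 scale (limma adjusted p = 0.0134) and was the only gene of this list past the test, or 1 of 2 without mutant pool 3. With no variance trend *myt1a* was not past it (limma adjusted p = 0.0684). *myrf*, the master regulator of myelin gene transcription in oligodendrocytes, stood at −0.03 (adjusted p = 0.892, limma). *sox8b*, at 1.29, missed the limit with a limma adjusted p of 0.0514. It is named after its value was seen, as in 6 of the alternatives 1 gene of this list was called higher. *sox8b* had 14.3, 16.7 and 13.0 normalized counts in the mutant pools, against 6.19, 7.54 and 3.20 in the WT pools. Only its mutant pools reached the minimum count of the filter, and WT pool 3 was at the floor of 3 reads. The size of this change thus rests on few reads, and no conclusion is drawn from it. The median of 7 precursor markers was 0.10. Of them, 3 were called higher and none lower, against 15.4% and 2.68% of all tested genes. These were *cspg4* at 1.60 (limma adjusted p = 0.00357), *ppp1r14ba* at 0.65 (limma adjusted p = 0.00294) and *pdgfra* at 0.58 (limma adjusted p = 0.000559). Of the 7, 3 had a log2 fold change below 0, namely *ppp1r14bb* at −0.17, *gpr37l1a* at −0.35 and *gpr37l1b* at −0.37. These and *gpr17*, at 0.10, were not past the test. *cspg4* and *pdgfra*, a proteoglycan and a growth factor receptor gene of oligodendrocyte precursors in mammals, are also known from mesenchyme and pericytes. The counts of *pdgfra* were 708, 673 and 645 in the mutant pools, against 468, 433 and 453 in the WT pools.

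Schwann cells and their crest precursors also use *sox10*, *mpz* and *mbpa*. Of 14 genes of Schwann cells and neural crest, 3 were called higher and none lower, with a median log2 fold change of 0.09. This count is not far from the 15.4% of all tested genes called higher, and no result about the list is read from it. ErbB3 receptors receive the axonal signal Neuregulin 1 that guides Schwann cells. *erbb3b* had 148, 150.01 and 112 normalized counts in the mutant pools, against 50.6, 64.1 and 65.1 in the WT pools. Its log2 fold change was 1.17 (SE 0.19, adjusted p = 0.00115, limma). *adgrg6*, the receptor gene that Schwann cells need to start myelination in zebrafish, had a log2 fold change of 0.60 (SE 0.14, adjusted p = 0.00986, limma). *erbb3a*, at 0.52, was called at a limma adjusted p of 0.048 with overlapping pools and lost the call without any 1 of 5 of the 6 libraries, and it was past the test without mutant pool 1. *s100b* rose by 0.45 on the log2 scale without reaching a call (limma adjusted p = 0.028), and was not past the test without mutant pool 1, mutant pool 2 or WT pool 3. *tfap2a* was past the test as lower, at −0.23 (limma adjusted p = 0.0386), the 1 gene of this list to be so. No gene of the list was past it as lower without mutant pool 1, mutant pool 2, WT pool 1 or WT pool 3. The crest gene *foxd3* and the Schwann cell gene *egr2b* are not past the test and have log2 fold changes of 0.06 and 0.15. *egr2a* at −0.39 and *nrg1* at −0.27 were not past it either. The log2 fold change was above 0 for 10 genes of this list and below 0 for 4. Among 10 tested pigment cell markers, the other crest derivatives that need *sox10*, 1 was called higher and 1 lower, with a median of −0.25. They were *gch2*, a pteridine synthesis gene, at 2.55 (limma adjusted p = 7.0e-05), and *slc45a2*, a melanosome transporter gene, at −0.57 (limma adjusted p = 0.0164). The receptor gene *kita* was past the test at −0.48 (limma adjusted p = 0.0158). The number of pigment cell markers called lower was 0 without mutant pool 3, WT pool 1 or WT pool 2 and 2 without mutant pool 2 or WT pool 3.

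**Figure D5:**
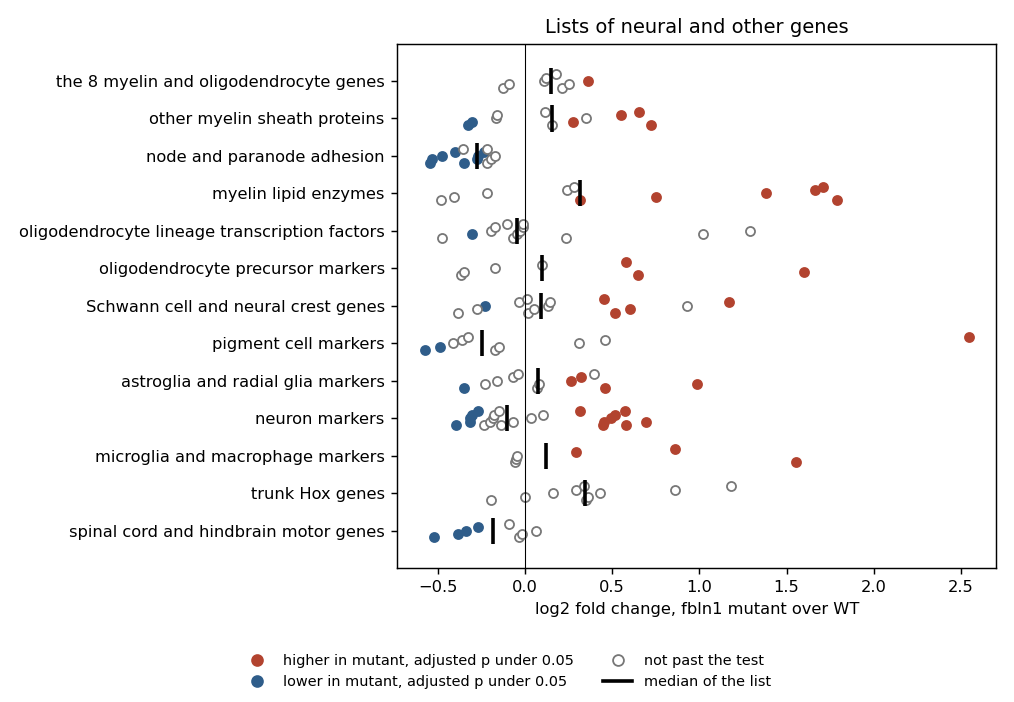
Log2 fold change of *fbln1* mutant over WT (x axis) for the genes of each list (rows), with the intestine and pancreas list left out for its range. Filled points have a limma adjusted p-value under 0.05, and the black bar is the median of the list. The median is 0.15 for the 8 myelin and oligodendrocyte genes, −0.27 for the node and paranode list and 0.32 for the lipid enzymes.

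The heads were not pure brain, and the label was compared with the markers of the tissues that could be in them. All 8 genes were above 0 in every library. The astroglia and radial glia list held 1 gene called higher and 0 called lower, with a median of 0.08 and summed counts of 37269 to 37443 in the mutant and 38836 to 40891 in WT. The neuron list held 4 genes called higher and 0 called lower with a median of −0.10. Trunk Hox genes, which should be low in heads without trunk, summed to 559 to 707 normalized counts in the mutant and 489 to 542 in WT. Of 10 tested, 0 were past the test. The log2 fold change was above 0 for 9 of them and below 0 for 1, with a median of 0.35. The neuron and Hox sums did not overlap between the groups, the neuron sum being lower and the Hox sum higher in every mutant pool. The lower astroglia sum rested on *glula*, and without this gene the sums were 25322, 25222 and 26918 in the mutant pools, against 24516, 26257 and 24531 in the WT pools, which overlap; this sum was chosen after the values were seen. The intestine and exocrine pancreas markers summed to 185156 to 306555 normalized counts in the mutant and 95490 to 174886 in WT. Of this list, 13 of 13 were called higher. Its gene *prss1* had 51006, 61895 and 39426 normalized counts in the mutant pools, against 41702, 24225 and 29447 in the WT pools. Whether these reads came from tissue outside the head was not tested. The part of any of these differences in the values of the 8 genes was not tested either.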

How the data were processed

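RNA-Seq was performed on 6 libraries of pooled larval heads. The authors mapped reads with the nf-core rnaseq pipeline to GRCz11 with an Ensembl annotation, and deposited gene counts divided by 1 size factor per library, a signal of normalized counts, in 1 table used here. Each value divided by the worth of 1 read in its library came out whole in 100% of cases, within 0.01 of a read. A second deposited table, the authors' DESeq2 fold changes and p-values, was not used. No sequences were used. Of 10 genes chosen by name, 2 are not reported here, and counts, sums and ratios are over the other 8.

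Genes that reached 10 normalized counts in 3 or more libraries were compared on log2(normalized count + 1), which understates changes of low genes, with limma 3.58.1 in R 4.3.3 (eBayes with a trend, genotype as the only term). The Benjamini-Hochberg adjustment ran over all 20691 tested genes. The labels do not say whether pools came from separate crosses, beyond calling them independent batches. The fit was tested on simulated data. The 8 genes, the lists and the tests were chosen with earlier results of these data known. All 8 genes and *fbln1* are named, and of each list the genes past the adjusted p of 0.05, at most the 4 with the largest change, with a few more beside them chosen after their values were seen. Alternatives covered scaling (TMM and library total), the filter, the pseudocount, the variance trend, a replicate block, the fold limit, each library left out, and edgeR 4.0.16, DESeq2 1.42.0 and limma-voom on the recovered reads. Ratios of counts were compared by exact permutation tests, two-sided. Depth limits each value by counting error, and for low genes the filter and the added 1 also matter.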

Additional observations from a re-analysis of the deposited data

How the results depend on the processing

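Of 136 values of the 8 genes under 17 alternatives, 134 kept their direction and their side of the adjusted p of 0.05. *mbpb* ranged from 0.31 to 0.44 on the log2 scale, with an adjusted p from 0.00298 to 0.0541, and missed the limit only without a variance trend, which left 0 of the 8 genes past the test. With each library left out, *sox10* ranged from −0.011 (without WT pool 1) to 0.20, *mpz* from 0.027 to 0.34, *mbpa* from 0.042 to 0.19, *cldnk* from 0.12 to 0.27, *olig1* from 0.16 to 0.30, *mag* from −0.14 to −0.049 and *olig2* from −0.18 to −0.069, none of them past the test. The number of the 8 genes past the test was 1 and the number called was 0 whichever library was left out. With no limit on the fold change, 1 was called higher. Over the other lists together, 4 genes were called lower, against 2 with TMM scaling, 2 with no variance trend, 2 with edgeR, 1 with limma-voom, 1 to 5 with a library left out and 24 with no fold limit. Past the test as lower were 24 genes of the lists, against 6 with no variance trend and 13 to 33 with a library left out. With no variance trend, the number past the test was 2 in place of 8 for the node and paranode list, 8 in place of 13 for intestine and pancreas, and 0 in place of 5 for neuron markers as lower. The number of node and paranode genes called lower was 2, against 0 with limma-voom and 1 with TMM scaling or edgeR. The cause was not tested.

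Over all genes, 3191 were called higher and 555 lower with limma, 3335 and 320 with edgeR and 3116 and 439 with DESeq2. Those called lower numbered 353 with TMM scaling, 312 with limma-voom and 255 to 1105 with a library left out. Past the test as lower were 3116, against 1145 with no variance trend. Replicate numbers were not treated as pairs: the deviations of same-numbered mutant and WT pools from their group means correlated at 0.04, 0.15 and 0.04 over genes, and mutant pool 3 correlated best with WT pool 1. The value of 0.15 was that of pool 2, which correlated at −0.09 to −0.07 with pools of another number in the other group. On the second principal component, with 10.2% of the variance, only mutant pool 2 (−20.2) and WT pool 2 (−35.0) were below 0. Whether these 2 pools shared a batch was not tested. With the replicate block 3241 genes were called higher and 581 lower, and *mbpb*, at an adjusted p of 0.00577, was again the only gene of the 8 past the test. For the sheath genes against marker lists, leaving out each library, and taking the mean of the genes in place of their median, were added after seeing the data and moved no direction.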

Other observations

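Single neuron and glia markers moved in both directions. Of the 22 neuron markers, 8 were past the test as higher and 5 as lower in *fbln1* mutant heads. The neurofilament genes *nefla* and *neflb* rose by 0.69 and 0.58 on the log2 scale (limma adjusted p = 0.00792 and 0.0239), and *stmn2b*, which codes for a microtubule regulator of growing axons, rose by 0.58 (limma adjusted p = 0.00477). *vamp2*, which codes for a synaptic vesicle protein, was lower, at −0.40 (limma adjusted p = 0.0118). *fabp7a*, a fatty acid binding protein gene of radial glia, had 3800, 3523 and 3186 normalized counts in the mutant pools, against 1822, 1918 and 1565 in the WT pools (log2 fold change 0.99, limma adjusted p = 4.0e-05). *gfap*, the intermediate filament gene of astroglia, was past the test at 0.32, and *glula*, the glutamine synthetase gene, at −0.35. *her4.2* has 2 rows and near-identical copies that may share reads: 1 row (ENSDARG00000094426) was past the test at 0.46 (limma adjusted p = 0.0301), and the other (ENSDARG00000056729), with few reads, was not, at 0.07 (limma adjusted p = 0.942). Of the astroglia list, 4 genes were past the test as higher, against 1 without WT pool 3 and 2 without mutant pool 1, mutant pool 2, WT pool 1 or WT pool 2. Of the neuron markers, 4 were past it as higher without WT pool 1 and 5 without WT pool 3, and those past it as lower were 1 without WT pool 3, 2 without mutant pool 1, and 3 without mutant pool 2 or WT pool 1.

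Of 8 tested spinal cord and hindbrain motor genes, 4 were past the test as lower and 1, *isl2b* at −0.52, was called, with a list median of −0.18. This call was lost without mutant pool 2, without WT pool 1 and with TMM scaling. Of 6 tested microglia and macrophage markers, *slc7a7* at 1.555 and *mpeg1.1* at 0.86 were called higher, with a list median of 0.12. Which cells gave the reads of *slc7a7* was not tested. *apoeb* was past the test at 0.29 without a call. *csf1ra*, *csf1rb* and *spi1b* stood at −0.05, −0.05 and −0.06 and were not past it. Of the 6 markers, 1 was called without mutant pool 1, without mutant pool 2, without WT pool 1 or without WT pool 3.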
